A study of Mus musculus with 4 samples.

Results

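The machinery of apoptosis was followed through 8 genes of cultured mouse spermatogonial stem cells, chosen by symbol: the apoptosome scaffold Apaf1, the caspases Casp9, Casp8 and Casp2, the death receptors Tnfrsf10b and Fas, the adaptor Fadd and the caspase inhibitor Xiap. All 8 were among the 22552 gene symbols in the deposited tables. RNA was sequenced from single-cell clones that carry an inducible knockout of the microRNA miR-202, named iKO-SC-1 and iKO-SC-2, derived from testis cells of male DBA/C57 F1 mice aged 5 to 7 days. After a night on laminin the clones spent 2 days with 10 µg/ml doxycycline, the inducer, or without it, which gives 2 libraries with the drug and 2 without. All 4 libraries bear the genotype label wild type and come from clones with the inducible system, so what doxycycline does by itself and what loss of miR-202 does cannot be told apart. Each clone is the progeny of 1 cell, and the libraries with the same replicate number were taken as 1 clone, which the titles do not state.

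Apoptosis runs through initiator and executioner caspases, proteases made in an inactive form. The initiators lie inactive until an adaptor brings them together. In the intrinsic pathway, cytochrome c released from mitochondria binds Apaf1, whose wheel-shaped oligomer, the apoptosome, activates caspase-9. In the extrinsic pathway, ligands of the tumour necrosis factor family bind Fas or the TRAIL receptor encoded by Tnfrsf10b, and the adaptor Fadd then gathers caspase-8. Xiap binds and blocks active caspase-9 and executioner caspases, while caspase-2 is activated by the adaptors Pidd1 and Cradd. In germ cells apoptosis sets the number of spermatogonia and removes damaged cells, and Apaf1, Fas and Tnfrsf10b are known targets of the tumour suppressor p53.

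The values are FPKM, fragments scaled for transcript length and library size. They summed to between 309153 and 320243 a library, and Mir202, the targeted gene, was listed at 0 in all 4 libraries, as were 605 of the 606 microRNA symbols, so it checks neither the knockout nor the labels. Relative depth, read from the steps among the lowest values, was 1.00 and 1.22 in the doxycycline libraries and 1.33 and 1.55 in the untreated ones (replicates 1 and 2), so the libraries with the drug were the shallower. Summed FPKM of 8 germ cell markers, Ddx4 and Dazl among them, was 879 and 837 with doxycycline and 856 and 855 without. Summed FPKM of 7 fibroblast feeder markers was 97.9 and 84.9 against 93.7 and 71.7, and that of 7 Sertoli markers 8.11 and 9.59 against 7.03 and 7.43, with Fshr at 0. The sums of 7 Leydig and peritubular markers were 8.09 and 12.6 against 11.6 and 13.7, with Cyp17a1 and Hsd3b1 at 0, and those of 8 macrophage and blood markers 7.81 and 8.46 against 7.85 and 8.13, with Tyrobp at 0. In bulk RNA such as this, fewer cells of a type and less RNA per cell cannot be told apart.

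The 8 genes spanned a wide range of levels, and the order of most of them was the same in both groups. Per length, Casp2 led without doxycycline with a mean of 19.2 FPKM, ahead of Tnfrsf10b (17.6), Casp9 (13.9), Xiap (11.3), Apaf1 (5.85) and Fadd (3.07), with Fas (0.482) and Casp8 (0.395) last. With the drug Tnfrsf10b came first at 26.4 FPKM, and the other 7 kept their order. In neither group did the 2 libraries of one gene overlap those of its neighbour in the order, except for Fas and Casp8 with doxycycline. Tnfrsf10b stood at 0.892 and 0.940 of the Casp2 level in the untreated libraries and at 1.30 and 1.51 of it in the treated ones. By mean level Tnfrsf10b lay above 69.3% of the 11924 genes whose mean reached 1 FPKM, which were the genes tested, Apaf1 above 37.9% and Fadd above 16.8%, while Fas and Casp8 lay below 1 FPKM and were not tested. The coefficient of variation over the 4 libraries was 26.9% for Apaf1 and 24.5% for Tnfrsf10b, against 2.63% for Casp2, 4.74% for Xiap and 5.86% for Casp9. It was 13.8% for Fadd, and 28.5% for Fas and 25.8% for Casp8 at their levels below 1 FPKM.

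**Figure D1:**
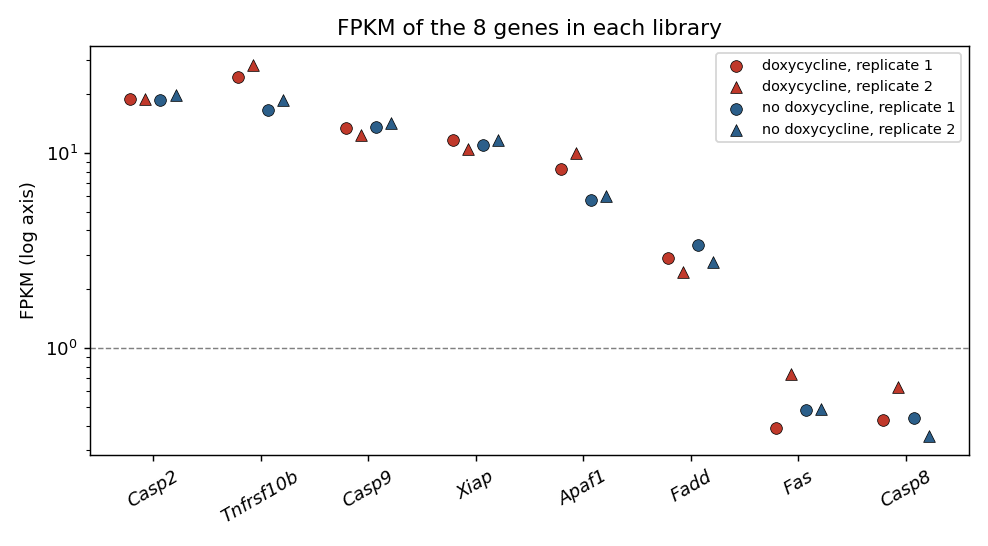
FPKM on a log axis of the 8 genes in each of the 4 libraries, ordered by the untreated mean; circles are replicate 1, triangles replicate 2, red with doxycycline, blue without, and the dashed line marks 1 FPKM. Tnfrsf10b and Apaf1 are higher in both red libraries than in both blue ones, and Fas and Casp8 lie below 1 FPKM in every library.

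The question of the comparison was which transcripts change when the knockout is induced. No member passed the threshold of an adjusted p of 0.05 in limma's test over all 11924 genes, where 0.277% of genes did (0.218% higher and 0.0587% lower with the drug), and at an unadjusted p under 0.05 there were 2 of 6 tested members against 15.1% of all tested genes. These were Apaf1 and Tnfrsf10b, and both passed when the replicate number was added as a block, a fit in which 3.7% of all genes passed, 2.73% as higher and 0.973% as lower. The median log2 change of the 6 tested members was -0.03, beside -0.0022 over all tested genes. Log2 changes are of FPKM + 1, doxycycline minus none, which understates the change of low genes. An exact permutation test of a single gene was not used, since 2 libraries against 2 allow no two-sided p below 0.333.

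Apaf1 forms the apoptosome and lies on chromosome 10 from 90452056 to 90545488 (mm9). The doxycycline libraries held 8.31 and 9.95 FPKM of it and the untreated ones 5.72 and 5.97, so both treated libraries were above both untreated ones, and 23.5% of all tested genes were higher without overlap in the same way. Its mean went from 5.85 ± 0.178 to 9.13 ± 1.16 FPKM (SD, n = 2 each), or 1.56-fold. The log2 change was 0.56 ± 0.09 (SE), with a limma adjusted p of 0.0818, and 0.00909 with the replicate block, under which it rose. The change was 0.47 in the replicate 1 pair and 0.65 in the replicate 2 pair.

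The apoptosome's caspase and its inhibitor passed the test in neither fit. Casp9, the initiator caspase that Apaf1 activates (chromosome 4, 141349527 to 141371890, mm9), was at 13.4 and 12.3 FPKM in the doxycycline libraries and 13.6 and 14.2 in the untreated ones. Both treated libraries were the lower ones, as for 24.9% of all tested genes, by a log2 change of -0.11 with a 95% interval from -0.26 to 0.04 (limma adjusted p = 0.453). Of its exons 94 bases overlap the opposite-strand gene Cela2a in GENCODE M21, which was at 14.7 to 16.3 FPKM, and since the strand setting is not given in the sources used here, reads of that stretch cannot be told apart. Xiap, which binds caspase-9 and the executioner caspases (chromosome X, 39421013 to 39462841, mm9), was at 11.6 and 10.5 FPKM with the drug and 10.9985 and 11.6 without, with overlapping groups. Its log2 change was -0.03 with an interval from -0.20 to 0.13 (limma adjusted p = 0.855). The FPKM of Apaf1 was 0.621 and 0.810 of that of Casp9 with doxycycline and 0.420 and 0.422 of it without. Against Xiap it was 0.718 and 0.949 with the drug and 0.520 and 0.515 without. Both ratios were thus higher in the treated libraries, as Apaf1 itself was. That of Casp9 to Xiap was 1.16 and 1.17 in them against 1.24 and 1.22 in the untreated ones. No ratio was tested, and how often the ratios of other gene pairs separate the groups was not computed.

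Apaf1 and Casp8 are shown as the tested member with the most CpG dinucleotides around its start and the member with the fewest among the first windows listed. The windows run from 250 bases before to 50 bases after the start in RefSeq (GRCm38.p6), and capitals mark each CpG. That of Apaf1 is chr10:91082694-91082993 on the minus strand, and that of Casp8 chr1:58802252-58802551 on the plus strand.
Apaf1: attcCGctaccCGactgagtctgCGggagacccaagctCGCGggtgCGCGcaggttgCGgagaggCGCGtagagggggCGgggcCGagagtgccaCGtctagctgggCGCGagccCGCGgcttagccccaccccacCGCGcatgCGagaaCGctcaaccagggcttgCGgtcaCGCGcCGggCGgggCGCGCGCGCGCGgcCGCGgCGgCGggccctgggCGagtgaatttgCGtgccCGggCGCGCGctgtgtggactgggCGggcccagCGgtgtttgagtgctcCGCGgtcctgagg
Casp8: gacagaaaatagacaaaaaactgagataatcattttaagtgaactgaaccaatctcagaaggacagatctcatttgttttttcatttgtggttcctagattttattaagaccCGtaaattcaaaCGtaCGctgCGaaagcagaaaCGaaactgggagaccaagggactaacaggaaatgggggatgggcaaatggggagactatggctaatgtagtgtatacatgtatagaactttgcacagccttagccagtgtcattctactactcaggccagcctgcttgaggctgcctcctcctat
The Apaf1 window held 46 CpG and 74.7% G and C, and the Casp8 window 5 CpG and 42% G and C. Those of Casp9, Casp2, Fadd and the first of the 3 of Xiap held 28, 26, 22 and 20 CpG, and that of Fas 14. The 2 members below 1 FPKM were thus those with the fewest CpG in these first windows. The other windows of Xiap, whose mean was above 1 FPKM, held 5 and 2 CpG, so the count depends on the window taken. The median was 22 CpG over 8516 genes whose mean reached 1 FPKM and 4 over 6647 genes below it. A window was listed for 7 of the 8 genes, and the gene without one was Tnfrsf10b. Stretches outside the windows were not searched. None of the windows of these 7 genes held a p53 half-site, searched on both strands, which 8.36% of all 32851 windows did.

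Casp2, the initiator caspase of the Pidd1 complex, had the lowest coefficient of variation of the 8 (chromosome 6, 42215038 to 42232495, mm9). Its levels were 18.9 and 18.8 FPKM in the doxycycline libraries and 18.6 and 19.7 in the untreated ones, and the groups overlapped. Its log2 change was -0.03 with an interval from -0.15 to 0.10 (limma adjusted p = 0.849), which holds neither the change of Apaf1 nor that of Tnfrsf10b. The difference between these changes was not tested.

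Tnfrsf10b, the only TRAIL receptor of the mouse with a death domain, was the death receptor with the highest level with the drug (chromosome 14, 70167279 to 70184218, mm9). The doxycycline libraries held 24.5 and 28.3 FPKM of it and the untreated ones 16.6 and 18.5. Both treated libraries were above both untreated ones for it, as for 23.5% of all tested genes. Its mean went from 17.6 ± 1.38 to 26.4 ± 2.69 FPKM (SD, n = 2 each), or 1.5-fold. The log2 change was 0.56 ± 0.08 (SE), with a limma adjusted p of 0.0697, and 0.00157 with the replicate block, under which it rose. The pairs were close to each other, at 0.54 in replicate 1 and 0.59 in replicate 2.

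For both Apaf1 and Tnfrsf10b the call turned on single libraries. Without doxycycline replicate 1 the log2 change was 0.68 for Apaf1 and 0.66 for Tnfrsf10b. Without doxycycline replicate 2 it was 0.44 and 0.46. The summed levels of both the Sertoli and the feeder markers were also higher with the drug in both pairs. None of the 3 tested Sertoli markers passed in either fit, with Sox9 at 0.26, Clu at 0.24 and Wt1 at -0.003. Of the 6 tested feeder markers 4 were higher in both pairs, as were 3911 of all 11924 tested genes. Thy1, which stem spermatogonia express as well, passed with the block (log2 change 0.30, limma adjusted p = 0.0312). Their part in these 2 results was not tested.

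**Figure D2:**
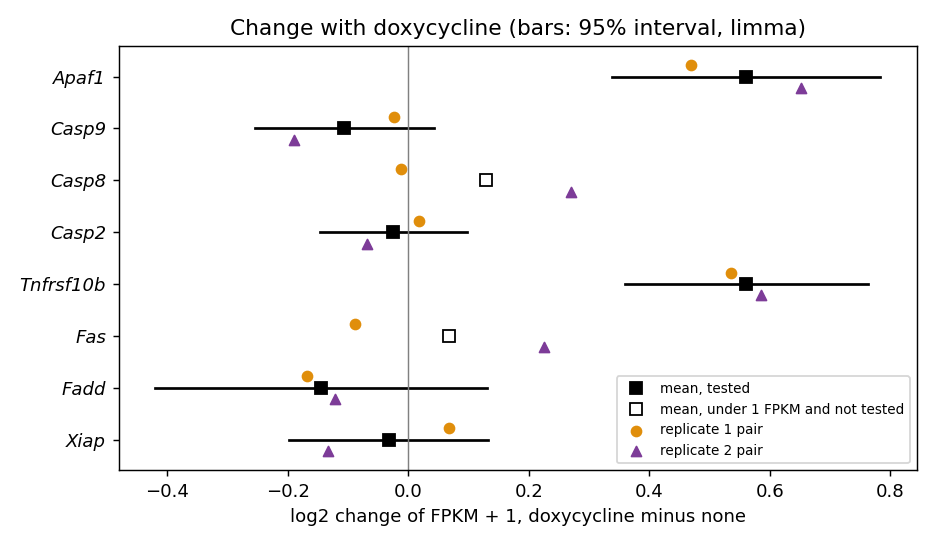
Log2 change of FPKM + 1 with doxycycline for the 8 genes; squares are means, filled where tested and open where the mean was under 1 FPKM, bars are 95% intervals of limma without a block, and circles and triangles are the replicate 1 and replicate 2 pairs. Apaf1 and Tnfrsf10b lie at 0.56 with both pairs to the right of 0, and the intervals of Casp9, Casp2, Fadd and Xiap hold 0.

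**Figure D3:**
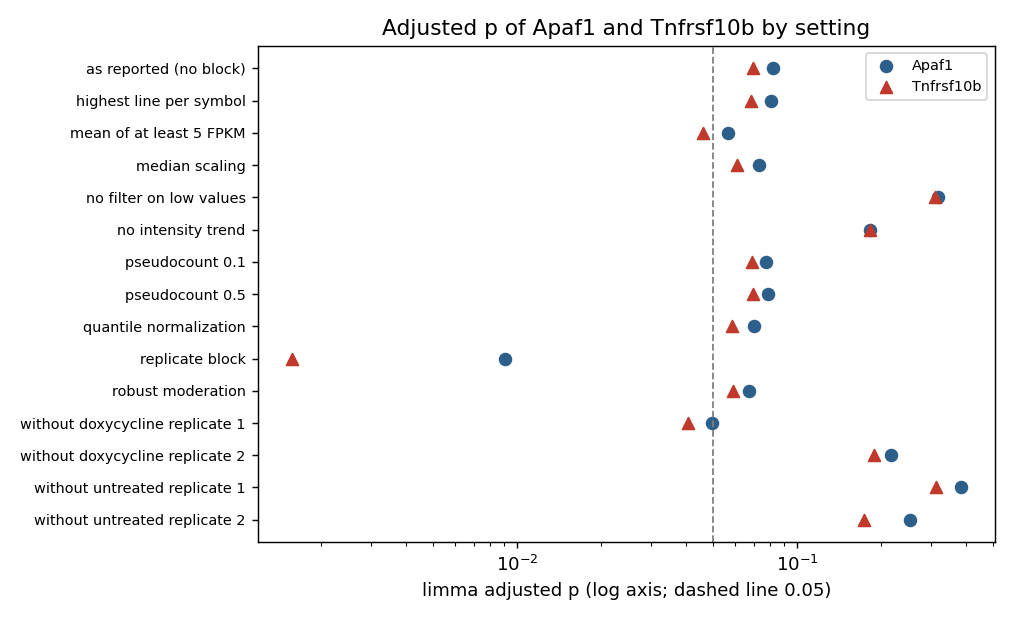
Limma adjusted p on a log axis for Apaf1 (circles) and Tnfrsf10b (triangles) under each setting, with the threshold of 0.05 dashed. Both are left of the line with the replicate block and without doxycycline replicate 1, and Tnfrsf10b also among genes whose mean reached 5 FPKM, at 0.0463.

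The other genes of the extrinsic branch were low. Fadd, the adaptor that links death receptors to caspase-8 (chromosome 7, 151764228 to 151768341, mm9), was at 2.90 and 2.44 FPKM with doxycycline and 3.39 and 2.74 without. It was lower with the drug in both pairs while the groups overlapped, and its log2 change of -0.15 had an interval from -0.42 to 0.13 (limma adjusted p = 0.583). Its exons share 239 bases with the antisense gene Faddos, not analysed here. Casp8, the initiator caspase of the extrinsic branch (chromosome 1, 58852218 to 58904347, mm9), was at 0.425 and 0.632 FPKM with the drug and 0.438 and 0.353 without. Fas, the receptor of Fas ligand (chromosome 19, 34365149 to 34402260, mm9), was at 0.390 and 0.737 FPKM with the drug and 0.479 and 0.486 without. In both genes doxycycline replicate 2 was the highest library and the groups overlapped. The bounds that the authors deposited for doxycycline replicate 1, a measure within that library only, ran from 0.172 to 0.678 FPKM for Casp8 and from 0.142 to 0.639 for Fas. With no filter on low values, where all genes above 0 in some library were tested, Casp8 had a log2 change of 0.13 with an interval from -0.10 to 0.35 (limma adjusted p = 0.608) and Fas one of 0.07 with an interval from -0.24 to 0.38 (0.856). The FPKM of Tnfrsf10b was 57.7 and 44.9 times that of Casp8 with the drug and 37.9 and 52.6 times without.

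Fas and Fadd were also the members with a match to the seed of miR-202, the microRNA that the inducible knockout targets. MicroRNAs pair through bases 2 to 8, the seed, with sites in the 3' untranslated region and lower the level or translation of the transcript. Both arms of miR-202 are shown with the seed in capitals, as RefSeq lists them (GRCm38.p6, chromosome 7, minus strand), since the heptamers searched follow from them.
mmu-miR-202-3p: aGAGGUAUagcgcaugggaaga
mmu-miR-202-5p: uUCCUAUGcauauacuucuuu
In the longest 3' untranslated region of each gene (GENCODE M21), the heptamers that match bases 2 to 8, or bases 2 to 7 followed by an A, occurred once in Fas and once in Fadd and in none of the other 6. Both matches were TACCTCA, of the second kind, for the 3p arm. They are shown with their flanks, the heptamer in capitals, at chr19:34327325-34327346 on the plus strand and chr7:144579468-144579496 on the minus strand (GRCm38).
Fas: aaacTACCTCAgttccagccat
Fadd: gtgaagagctgTACCTCActgtcctaacc
The Fas site starts at base 5 of a region of 448 bases and the Fadd site at base 1044 of 3211. A site for the 3p arm was found in 13.9% of 10520 tested genes with such a region, and one for the 5p arm in 15.8%. The bases that the heptamer pairs with are not particular to miR-202, since 13 mature mouse microRNAs in the table carry the same bases 2 to 7, its own 3p arm included and let-7 family members for the most part, such as let-7a with those bases in capitals.
mmu-let-7a-5p: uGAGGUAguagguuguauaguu
Neither gene with a match was higher with the drug in both pairs. Apaf1 and Tnfrsf10b, with regions of 2139 and 1845 bases, held no heptamer of either arm, which says only that these letters do not occur there.

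The other genes of the death pathways were read from 9 lists. Among 66 such genes found by symbol, 46 reached a mean of 1 FPKM, and of these none passed limma's test over all genes, 3 passed with the block, all higher, and 7 had an unadjusted p under 0.05. Over all tested genes these shares were 0.277%, 3.7% and 15.1%, so the last count was at the background. Their median log2 change was 0.01, beside -0.0022 over all tested genes. The 3 were the receptors Eda2r and Tnfrsf1a and the inhibitor family member Birc5.

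Eda2r, the ectodysplasin A2 receptor and a known p53 target, showed the largest change of these lists. The doxycycline libraries held 6.89 and 8.81 FPKM and the untreated ones 2.47 and 3.64, or 2.57-fold. Both treated libraries were above both untreated ones for it, as for 23.5% of all tested genes. Its log2 change was 1.13 ± 0.16 (SE), with a limma adjusted p of 0.0651 and of 0.000497 with the block. Tnfrsf1a, the main receptor of tumour necrosis factor, was at 18.7 and 18.2 FPKM with the drug and 15.0 and 15.7 without, a log2 change of 0.25 (limma adjusted p = 0.136, and 0.0446 with the block). Of the 7 other receptors of this family on the list 4 were tested, among which Eda2r and Tnfrsf12a have no death domain, and Tnfrsf25 and Tnfrsf12a had log2 changes of -0.11 and -0.06. The ligands were low, and Tnf was listed at 0 in every library. Tnfsf10, which encodes TRAIL, was at 0 in 3 and at no more than 0.0060 FPKM in the fourth. Fasl was at 0.160 and 0.214 FPKM with the drug and 0.0783 and 0.0862 without. With no filter on low values its limma adjusted p was 0.367. Ltb and Tnfsf12, the 2 tested ligands, had log2 changes of 0.17 and 0.21, and the decoy receptors Tnfrsf22 and Tnfrsf23 of 0.14 and 0.13, none past the threshold in either fit. Tnfrsf22 and Tnfrsf23 are close paralogs, and so are the Naip genes, all 4 of them below 1 FPKM, so their reads may be split.

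Downstream genes passed in neither fit apart from Birc5. Birc5 encodes survivin, which serves both in cell death and in the chromosomal passenger complex of mitosis, and was at 40.8 and 45.3 FPKM with the drug against 35.5 and 35.2 without (log2 change 0.28, limma adjusted p = 0.136, and 0.0294 with the block). Of the other caspases Casp6, an effector caspase, was at 15.72 and 14.04 FPKM with the drug and 14.14 and 12.18 without, and the groups overlapped. Its log2 change was 0.17 (limma adjusted p = 0.42). Casp1, Casp4, Casp12 and Casp14 lay below 1 FPKM and were not tested. Of these Casp14, a caspase of the epidermis, was at 0.379 and 0.294 FPKM with the drug and 0.0792 and 0.0678 without. With no filter on low values its limma adjusted p was 0.274. The 10 adaptors and kinases, such as Tradd at -0.18 and Cradd at 0.15, had a median of -0.03. Of the brakes and effectors of caspase-8 signalling and necroptosis, Cflar, which blocks caspase-8, was at 0.05 and Faim at -0.08. The 9 mitochondrial factors had a median of 0.01, with the serine protease Htra2 at -0.18, Apip at 0.05, cytochrome c (Cycs) at 0.01 and the Xiap antagonist Diablo at -0.02. Usp11, a deubiquitinase that acts on Xiap, was at -0.08. Among the 8 tested caspase substrates, Dffa, the inhibitor of the apoptotic nuclease, was at -0.20, Lmna at 0.19 and Parp1, the most abundant, at -0.04.

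**Figure D4:**
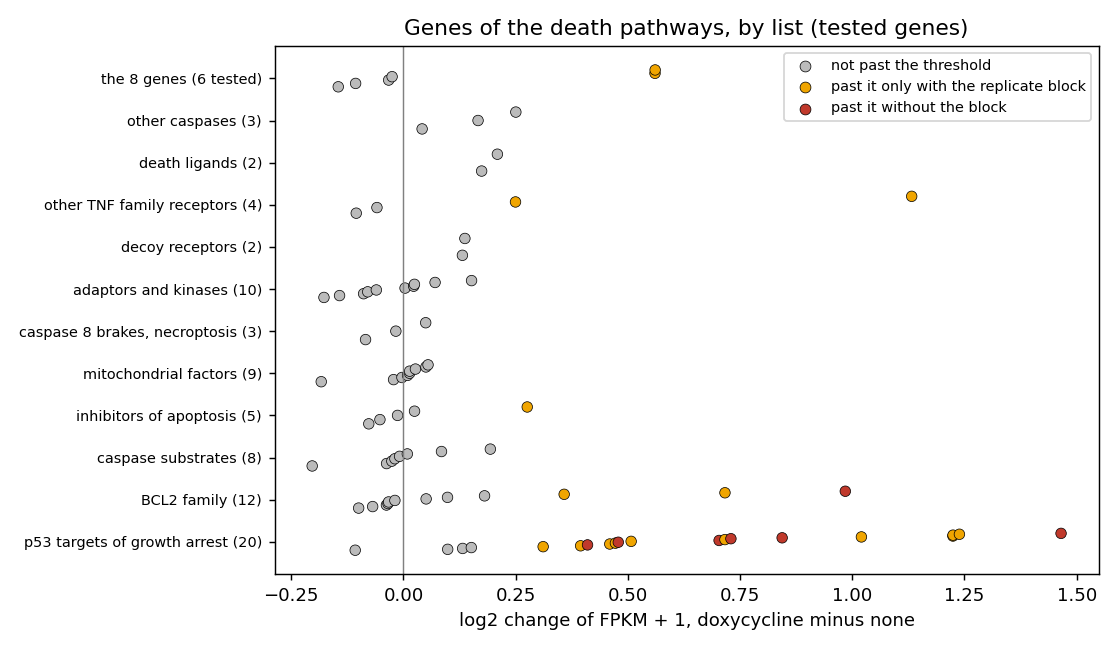
Log2 change of FPKM + 1 with doxycycline of every tested gene of each list, with the number tested in brackets; grey points did not pass, orange points passed only with the replicate block, red points passed without it. In the 9 lists of the death pathways 3 points are orange and none red, while the BCL2 family has 1 red point and the p53 targets 6.

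The BCL2 family, upstream of the apoptosome, and p53 targets were read from a list each. The shares of all tested genes past the threshold were 0.277% without the block and 3.7% with it. Of 12 tested members of the BCL2 family, which govern the release of cytochrome c, Bbc3 rose without the block (log2 change 0.98, limma adjusted p = 0.0288) and 3 rose with it, when Pmaip1 (0.72, 0.00372 with the block) and Bax (0.36, 0.00476 with the block) passed as well. Without the block no gene of the family passed when any library other than doxycycline replicate 1 was left out, and neither with no filter on low values nor with no intensity trend. Bok was at 0.18 and passed in neither fit, and the family's median was 0.02. Of the 20 p53 targets on the list, 6 rose without the block and 16 with it. Without the block the count depended on single libraries. Pmaip1 is on both lists and counts in both totals with the block. The median of the 20 p53 targets was 0.49, and Ccng1, Cdkn1a, Plk2 and Psrc1 had the largest changes, from 1.22 to 1.47. Among these only Ccng1 passed without the block (limma adjusted p = 0.0291). Cdkn1a (limma adjusted p = 0.0636), Plk2 (0.0522) and Psrc1 (0.053) passed only with it. The list was drawn up with the results of these libraries known, so its direction is not independent evidence.

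Over the 4 libraries, the genes most like Tnfrsf10b by the distance between centred log2 values were 6530418L21Rik at 0.067, Pigf at 0.069 and Gfer at 0.070, among all other tested genes. 6530418L21Rik was low, at 1.46 and 1.77 FPKM with the drug and 0.593 and 0.841 without. Its FPKM thus changed 2.26-fold, against 1.5-fold for Tnfrsf10b. The distance uses FPKM + 1, which understates the change of such a low gene. Pigf, of glycosylphosphatidylinositol anchor synthesis, was at 27.1 and 33.5 FPKM with the drug and 19.0 and 21.1 without. Gfer, a sulfhydryl oxidase of mitochondrial import, was at 10.9 and 12.0 against 7.32 and 8.19. Apaf1 was the fifth nearest, at 0.074, and the other tested members lay at 0.606 to 0.802. With 4 libraries this likeness is a description only.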

How the data were processed

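Total RNA was taken up in TRIzol and run on an Illumina HiSeq4000, per the labels. The submitters' processing notes list the build mm9 and the programs TopHat2 2.0.6, Cufflinks 2.0.2 and Cuffdiff, with no role or order. The authors deposited 1 table of FPKM values for each library, per the file headers. The annotation and the strand setting were not given in the sources used here, nor was the number of reads, so absolute depth is unknown. Loci and confidence bounds come from the table of doxycycline replicate 1, with starts counted from 1.

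Lines that share a symbol (259 symbols) were added up. The 11924 genes whose mean reached 1 FPKM were tested on log2(FPKM + 1) with limma 3.58.1 (R 4.3.3), an intensity trend, two-sided, with Benjamini-Hochberg adjustment over all of them and a threshold of 0.05. The code was tested on simulated data. Residual degrees of freedom were 2, or 1 with the replicate number as a block. The design text names the same 2 clones for both conditions, hence the pairing. What sets a library apart from its group's mean correlated at 0.215 over genes between libraries of 1 number. This does not show that they are 1 clone, since replicate 1 was also the shallower in both groups. Nothing says that libraries came from separate cultures, so p-values cover only the spread among these 4. Correlations between libraries, from 0.9964 to 0.9982, showed no copy.

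The members and lists were chosen with earlier results of these data known. Named are all members, of each of the 9 lists the genes past the threshold in either fit and the 2 largest changes, up to 4 of the BCL2 and p53 lists, and the 3 genes nearest the member with the largest change. Beside these, Tnf, Tnfsf10, Fasl, Tnfrsf25, Tnfrsf12a, Cycs, Diablo, Parp1, Thy1, Sox9, Clu, Wt1 and the low caspases were added after their values were seen. Some genes that the rule names are not reported here. Alternatives were 2 other pseudocounts (0.1 and 0.5), no filter and one of 5 FPKM, the block, no trend, robust moderation, quantile and median scaling, the highest line per symbol, and each library left out.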

Additional observations from a re-analysis of the deposited data

Results flagged for a closer look

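In 4 of the 8 genes the change with doxycycline had opposite signs in the same-numbered pairs. Each pair is 1 library against 1, so the difference between pairs was not tested. Casp8 had a log2 change of -0.013 in replicate 1 and 0.27 in replicate 2, and Fas one of -0.089 and 0.23, both at levels under 1 FPKM. Casp2 had one of 0.018 and -0.068, and Xiap one of 0.068 and -0.13. Apaf1 and Tnfrsf10b were higher and Casp9 and Fadd lower with the drug in both pairs. Of the 6 tested members 2 were thus higher and 2 lower in both pairs, beside 3911 and 4059 of all 11924 tested genes.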

How the results depend on the processing

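Over all genes, 33 passed as reported, 88 among genes of at least 5 FPKM, 1 with no filter, 2 with no intensity trend, 441 with the replicate block, and 2 to 60 with 1 library left out. Of the 8 members, 0 passed as reported, 1 (Tnfrsf10b) among genes of at least 5 FPKM, 2 (Apaf1 and Tnfrsf10b) with the replicate block, and 0 to 2 with 1 library left out. Of the other genes of the pathways, 0 passed as reported, 1 (Eda2r) with the filter of 5 FPKM, 3 with the replicate block, and 0 with any library left out. The replicate block changed no other call among the genes of the members and the 9 lists. The 6 p53 targets became 16 with the block, 12 with the filter of 5 FPKM, 11 with quantile normalization, 0 with no filter or no intensity trend, and 0 to 12 with 1 library left out, and the 1 BCL2 family gene became 3 with the block and 0 with no filter or no intensity trend. Apaf1 kept a log2 change of 0.44 to 0.68 and Tnfrsf10b of 0.46 to 0.66 under all 14 alternatives. Small changes reversed with 1 library left out: Fas ranged from -0.093 (without doxycycline replicate 2) to 0.23, Casp2 ranged from -0.065 to 0.015 (above 0 without untreated replicate 2), Xiap from -0.098 to 0.032 (0.032 without doxycycline replicate 2 and 0.0023 without untreated replicate 2), Cflar from -0.018 (without doxycycline replicate 1) to 0.12, and Apip from -0.0075 (without doxycycline replicate 2) to 0.12. Fadd ranged from -0.26 (without untreated replicate 2) to -0.031 (without untreated replicate 1) and Casp9 from -0.16 (without doxycycline replicate 1) to -0.050 (without doxycycline replicate 2). Casp8 moved from 0.13 to 0.33 with a pseudocount of 0.1. The cause was not tested. Leaving out a library leaves 1 in its group, which is assumed to vary like the others.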
